A study of Homo sapiens with 24 samples.

Results

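Bleomycin and doxorubicin both damage DNA and both drive SKBR3 cells into therapy-induced senescence (TIS), and their transcriptomes were compared directly here. The comparison comprised 6 libraries, 3 from bleomycin and 3 from doxorubicin TIS cells, taken from a series of 24 libraries by the drug named in the sample labels, and every gene of the deposited count table was considered. SKBR3 is an established human breast cancer cell line with amplified ERBB2 and a mutant p53. Bleomycin was given at 10 μmol/L and doxorubicin at 10 nmol/L, each with a refeed on day 3, and cells were collected on day 7. Untreated cells of the same line collected on day 7 (3 libraries) and on day 0 (3 libraries) served as proliferative controls, and none of these 12 libraries is labelled as genetically modified. Doses and agents differed at once, so an effect of the agent and an effect of the strength of its dose cannot be told apart. The labels give no refeed for untreated day-7 cells, so in comparisons with them drug and refeeding cannot be told apart either.

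Bleomycin is a glycopeptide that binds metal and cuts DNA strands through oxygen radicals, and it is often used as a mimic of radiation. Doxorubicin is an anthracycline that inserts into DNA and traps topoisomerase II on it. Cells with lasting DNA damage stop replicating, shut down genes driven by E2F transcription factors, and may switch on genes of the interferon response, whose promoters carry a short element read by IRF9 and its STAT partners or by other IRF proteins. They also secrete chemokines, growth factors, and proteases, known as the senescence-associated secretory phenotype.

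Counts assigned to genes ranged from 30696139 to 40842973 in the 6 libraries. All 8 genes listed as SKBR3 markers were detected, and their median log2 fold-change between both drugs was -0.17. ERBB2 was measured at 6786, 5155, and 5121 CPM (counts scaled to library size with TMM factors) in bleomycin and at 6175, 5603, and 5396 CPM in doxorubicin TIS cells. Of 12 genes that mark other lines of the study, 5 were listed and TFF1 and FN1 were lower in bleomycin TIS cells. Of 11 markers of fibroblasts, immune cells, and endothelium, 4 were listed in the table, and only CD68 among them differed. Mitochondrial transcripts took 7.62% to 11.7% of counts in bleomycin and 4.51% to 6.29% in doxorubicin libraries, against 1.41% to 3.28% in untreated day-7 libraries, so their share moved with the drug, and its part in the other differences was not tested beyond the refit without these transcripts given below. Replicates of bleomycin lay farther apart than those of doxorubicin, at Euclidean distances of 52.2 to 61.8 and of 36.9 to 46.1 between log2 CPM profiles, respectively. The labels do not say that replicates were separate cultures, so p-values measure the spread between these libraries, which may be technical.

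The direct test covered 13862 genes. At an adjusted p-value under 0.05 (edgeR's quasi-likelihood test), 906 of them had higher levels in bleomycin than in doxorubicin TIS cells (6.54%) and 767 had lower levels (5.53%). Requiring instead a 2-fold difference together with an unadjusted p-value under 0.05 gave 250 higher (1.8%) and 291 lower genes (2.1%). Libraries of both drugs did not overlap in 5048 of the 13862 genes. This held for all 906 higher and for 766 of the 767 lower genes above, so lack of overlap adds little to a call. For scale, 3089 genes were higher (22.4%) and 3205 were lower (23.2%) in bleomycin TIS cells than in untreated day-7 cells, and doxorubicin had 3040 genes higher (21.9%) and 2975 lower (21.5%), in fits that share the untreated libraries. The median log2 fold-change of bleomycin over doxorubicin over all genes tested was -0.0074, and 6805 genes had a value above 0. Scaling with TMM factors brings this median close to 0, so it does not show that most genes were unchanged.

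The number of calls rested on single libraries. Without doxorubicin replicate 1 the calls dropped to 46 higher and 26 lower, and without doxorubicin replicate 3 to 79 and 41. They were 601 and 352 without doxorubicin replicate 2 and 508 and 441 without bleomycin replicate 2. A set of 68 genes, 45 higher and 23 lower in bleomycin, kept an adjusted p-value under 0.05 in all 6 of these fits. For each gene described below, the number of the 6 fits in which it kept its call is given as, for example, "4 of 6". Among the genes named here, 106 were no longer past the threshold without doxorubicin replicate 1, 97 without doxorubicin replicate 3, 42 without doxorubicin replicate 2, 27 without bleomycin replicate 2, 21 without bleomycin replicate 3, and 5 without bleomycin replicate 1.

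**Figure D1:**
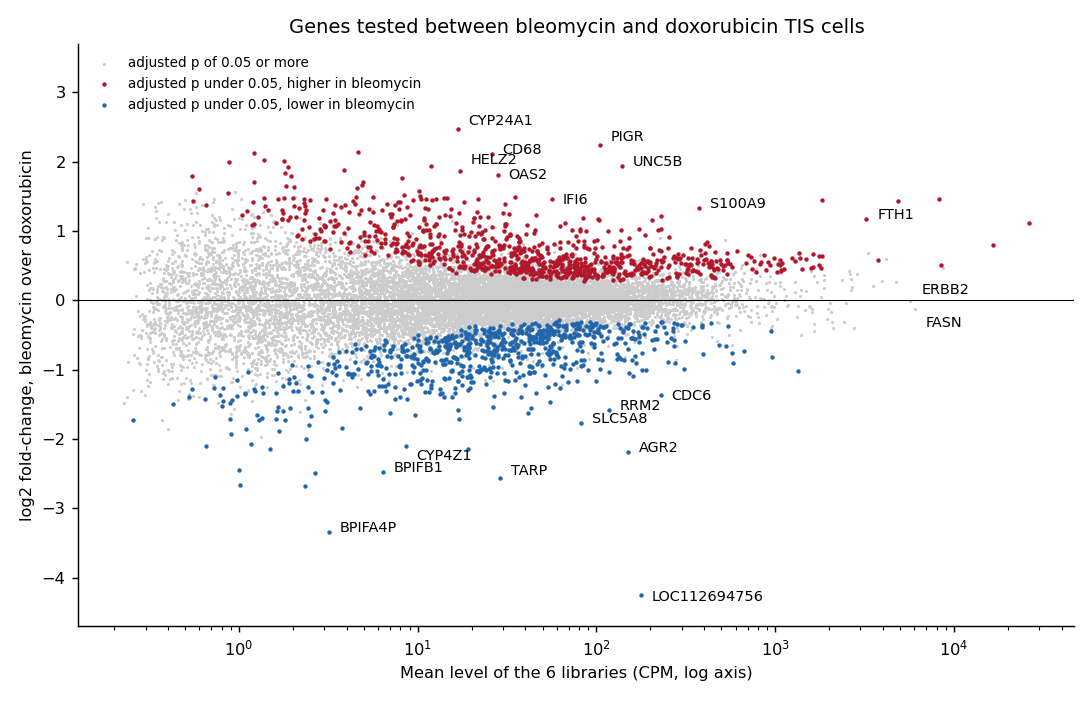
Each point is a gene, with the mean CPM of the 6 libraries on a log axis and the log2 fold-change of bleomycin over doxorubicin on the vertical axis. The 906 genes in red and the 767 genes in blue had an adjusted p-value under 0.05, and ERBB2 and FASN lie close to 0.

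Of the gene lists examined, interferon-stimulated genes had the highest median log2 fold-change of bleomycin over doxorubicin. Of 44 such genes in the list, 28 were in the count table and were tested. Of these, 18 were upregulated in bleomycin relative to doxorubicin TIS cells and 0 were downregulated, against 6.54% of all genes, and their median log2 fold-change was 0.83. The count was 5 without doxorubicin replicate 1 and 7 without doxorubicin replicate 3, while the median stayed between 0.75 and 0.95 in all 6 fits. List medians over untreated day-7 cells were 3.01 on the log2 scale for bleomycin and 1.78 for doxorubicin. Against these cells 23 of the 28 were higher and 0 lower with bleomycin, and 22 were higher and 3 lower with doxorubicin. Of all genes, 22.4% were higher and 23.2% lower with bleomycin, and 21.9% and 21.5% with doxorubicin.

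The promoters of these genes show what they share at the sequence level. The letters GAAANNGAAA, the core of the interferon-stimulated response element, were searched on both strands in the window of 250 bases before and 50 bases after each gene start (RefSeq, GRCh38.p14). They were present in 17 of 23 interferon-stimulated genes with a promoter entry (73.9%), in 37 of 697 upregulated genes (5.31%), in 13 of 620 downregulated genes (2.1%), in 284 of 10710 genes tested (2.65%), and in 996 of all 27305 promoters (3.65%). A match is a description of the letters and not of binding. The promoters below are examples from genes that were upregulated with bleomycin and hold the element. Other genes with the element include MX1, BBC3, and TNFSF10, which were upregulated, ABCC2, which was downregulated, and CD274, which did not pass. The printed promoters read 5′ to 3′ on the strand of the gene, with each match in capitals, and overlapping matches run together. A further match of IFITM1, at positions -6 to 3 from its start, crosses the end of the stretch and is not marked.
IFI6 (chr1:27672266-27672365, minus strand): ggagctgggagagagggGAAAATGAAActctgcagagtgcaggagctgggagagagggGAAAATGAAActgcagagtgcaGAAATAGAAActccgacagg
IFITM1 (chr11:313940-314039, plus strand): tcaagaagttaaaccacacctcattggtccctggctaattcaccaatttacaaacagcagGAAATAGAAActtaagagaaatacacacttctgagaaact
ISG15 (chr1:1013310-1013409, plus strand): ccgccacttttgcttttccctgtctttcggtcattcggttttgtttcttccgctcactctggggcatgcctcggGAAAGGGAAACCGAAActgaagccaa
CEACAM1 (chr19:42528578-42528677, minus strand): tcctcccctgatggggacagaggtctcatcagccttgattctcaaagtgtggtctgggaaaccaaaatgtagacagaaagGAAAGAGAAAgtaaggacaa
B2M (chr15:44711299-44711398, plus strand): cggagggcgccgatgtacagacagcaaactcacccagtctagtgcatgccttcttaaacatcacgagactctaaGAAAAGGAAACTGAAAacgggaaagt

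IFI6, which encodes a membrane protein that blocks viral replication, carries the element 3 times in the printed stretch and was measured at 95.2, 71.7, and 81.2 CPM in bleomycin and at 34.2, 28.8, and 26.8 CPM in doxorubicin TIS cells. All bleomycin libraries lay above all doxorubicin libraries, and untreated day-7 cells had 5.83 CPM ± 1.42 (SD, n = 3). The log2 fold-change between both drugs was 1.46 (SE 0.13, adjusted p = 0.00172, edgeR, 6 of 6). IFITM1, a membrane protein that restricts virus entry, was at 21.5, 17.7, and 22.9 CPM in bleomycin and at 8.09, 8.32, and 5.8 CPM in doxorubicin TIS cells, again without overlap (log2 fold-change 1.48, SE 0.17, adjusted p = 0.0051, edgeR, 6 of 6). ISG15, a ubiquitin-like modifier, was at 18, 8.84, and 14.3 CPM in bleomycin and at 7.31, 6.24, and 6.13 CPM in doxorubicin TIS cells. Its groups did not overlap, but bleomycin replicate 2 lay close to the doxorubicin range, and the call held in 2 of 6 fits (log2 fold-change 1.06, adjusted p = 0.0258, edgeR). It was lost without any 1 of the 3 doxorubicin libraries or without bleomycin replicate 3, at adjusted p-values up to 0.108.

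Within the list of interferon-stimulated genes, OAS2 and MX1 had the largest log2 fold-changes. OAS2 (GRCh37 chr12:113416200-113449528), a sensor of double-stranded RNA that makes the activator of RNase L, was at 51.5, 33.1, and 46.5 CPM in bleomycin and at 11.2, 16.1, and 10.1 CPM in doxorubicin TIS cells. Untreated day-7 cells had 0.532 to 1.19 CPM, so OAS2 was higher than untreated by 5.61 with bleomycin and by 3.82 with doxorubicin on the log2 scale. The difference between both drugs was 1.81 (SE 0.21, adjusted p = 0.00496, edgeR, 6 of 6), or 3.5-fold. MX1, a dynamin-like GTPase that traps viral nucleocapsids, was at 15, 8.11, and 14.5 CPM in bleomycin and at 2.24, 5.1, and 3.72 CPM in doxorubicin TIS cells (log2 fold-change 1.77, adjusted p = 0.0148, edgeR, 4 of 6). Without doxorubicin replicates 1 or 3 its adjusted p-value rose to as much as 0.0719.

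HELZ2, a helicase that is itself induced by interferon and serves as a nuclear receptor coactivator, had close replicates. It lies at chr20:62189439-62205592 on GRCh37 and was at 29.3, 27.4, and 24.1 CPM in bleomycin, at 7.62, 7.27, and 7.25 CPM in doxorubicin, and at 1.26, 1.1, and 1.1 CPM in untreated day-7 cells. The 3 groups formed 3 separate steps. The log2 fold-change of bleomycin over doxorubicin was 1.87 (SE 0.13, adjusted p = 0.000883, edgeR, 6 of 6) and ranged from 1.79 to 1.94 over the 6 fits. Its promoter window had no match to the element. Of the list, PARP14 (1.42), BST2 (1.44), OAS1 (1.26), PLSCR1 (1.23), and GBP2 (1.15) were also upregulated on the log2 scale, and USP18, the protease that removes ISG15, did not pass (0.07).

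**Figure D2:**
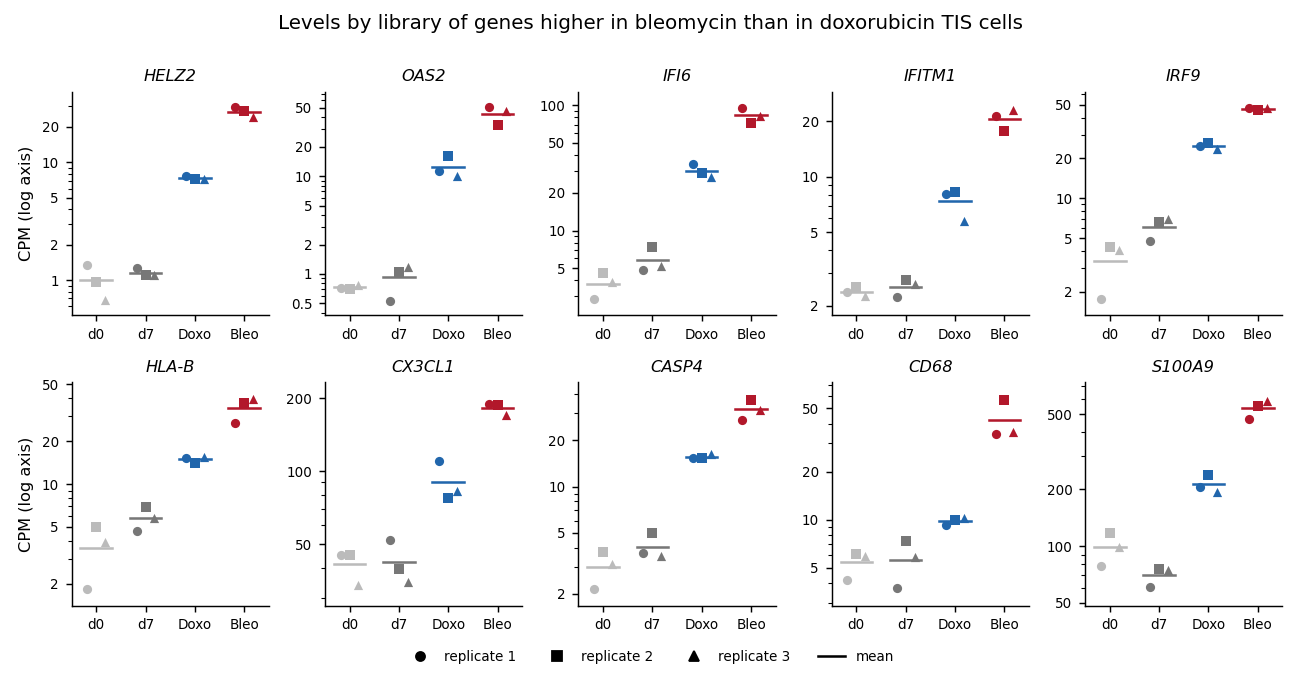
CPM on a log axis in each library of untreated day-0 (d0), untreated day-7 (d7), doxorubicin (Doxo), and bleomycin (Bleo) cells for 10 genes, with marker shape for the replicate and a bar for the mean of 3 libraries. For HELZ2 the bleomycin libraries sit between 24.1 and 29.3 CPM and the doxorubicin libraries between 7.25 and 7.62 CPM. In none of the 10 genes do both drugs overlap, as was so for 5048 of 13862 genes tested.

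Genes that transmit the interferon signal were next examined. Of 19 ligands, receptors, STATs, and IRFs tested, 3 were upregulated and 0 downregulated, against 6.54% and 5.53% of all genes. The median log2 fold-change was 0.25, and the count was 1 without doxorubicin replicate 1. The 3 genes were IRF7, IRF9, and IRF1, all of which are transcription factors. IRF9, a DNA-binding factor of the interferon response, was at 47.3, 45.9, and 47.3 CPM in bleomycin and at 24.7, 25.8, and 23.4 CPM in doxorubicin TIS cells. Replicates of either drug were nearly the same for IRF9, and the log2 fold-change was 0.93 (SE 0.09, adjusted p = 0.00267, edgeR, 6 of 6). IRF7, a driver of interferon production that is also an interferon target, was higher by 1.06 (adjusted p = 0.00755, edgeR, 5 of 6, lost without doxorubicin replicate 1), and IRF1 by 0.54 (adjusted p = 0.0381, edgeR, 1 of 6). The interferon genes IFNB1, IFNE, and IFNL1 were not analysed here, and the receptor subunits IFNAR1 (0.03) and IFNAR2 (-0.03) were near 0.

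Among 13 genes for nucleic acid sensing that were tested, TREX1, SAMHD1, and DHX58 were upregulated and 0 were downregulated, against 6.54% and 5.53% of all genes. TREX1 is an exonuclease that clears cytosolic DNA and SAMHD1 a phosphohydrolase of deoxynucleotides, so both are known to limit sensing, while DHX58 (LGP2) is a helicase that modulates the RIG-I pathway. SAMHD1 was at 40.8, 28.3, and 40.4 CPM in bleomycin and at 20.5, 24.1, and 19.1 CPM in doxorubicin TIS cells (log2 fold-change 0.78, adjusted p = 0.0195, edgeR, 4 of 6). TREX1 was at 3.63, 6.9, and 4.11 CPM against 1.94, 3.11, and 1.81 CPM, a log2 fold-change of 1.10 with a call just under the threshold (adjusted p = 0.0496, edgeR, 2 of 6). The sensor adaptors STING1 (-0.01), MAVS (0.18), and TBK1 (-0.08) did not pass. Without doxorubicin replicate 1 or 3 the number of upregulated genes in the list was 0, and without bleomycin replicate 3 it was 1.

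The MHC class I pathway, which displays peptides to T cells, was higher as well. Of 23 genes tested, 12 were upregulated, ULBP1 described below included, and 0 downregulated, against 6.54% and 5.53% of all genes. The median log2 fold-change was 0.37, and the count was 3 without doxorubicin replicate 1 and 5 without doxorubicin replicate 3. NLRC5, the transactivator of class I genes, was at 5.95, 6.51, and 6.95 CPM in bleomycin and at 2.5, 1.8, and 3.14 CPM in doxorubicin TIS cells (log2 fold-change 1.39, SE 0.23, adjusted p = 0.0112, edgeR, 5 of 6). B2M, the light chain, was at 533, 654, and 604 CPM against 438, 383, and 446 CPM (log2 fold-change 0.50, adjusted p = 0.025, edgeR, 2 of 6). The heavy chain HLA-B was at 27, 36.7, and 39.5 CPM against 15.2, 14.1, and 15.5 CPM (log2 fold-change 1.20, adjusted p = 0.00605, edgeR, 6 of 6). Reads of HLA-B can be exchanged with those of similar class I genes or lost when alleles differ from the reference. The immunoproteasome subunits PSMB8 (0.80) and PSMB10 (0.94) were upregulated, whereas PSMB9 (0.15) and the peptide transporters TAP1 (0.16) and TAP2 (0.02) did not pass.

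Ligands of the NKG2D receptor of natural killer cells, which belong to the same list, were split. ULBP1 was at 17.8, 23.7, and 13.9 CPM in bleomycin and at 6.75, 6.9, and 6.5 CPM in doxorubicin TIS cells, while untreated day-7 cells had 3.92 to 8.69 CPM. It was thus higher in bleomycin than in doxorubicin cells (log2 fold-change 1.46, SE 0.20, adjusted p = 0.00681, edgeR, 6 of 6), and doxorubicin cells lay within the untreated range. ULBP2 (-0.78), MICB (-0.76), MICA (-0.61), and ULBP3 (-0.34) had negative log2 fold-changes and did not pass. The checkpoint ligand CD274 (PD-L1) was at 5.38, 5.46, and 9.38 CPM in bleomycin and at 10.2, 7.55, and 11.1 CPM in doxorubicin TIS cells, with overlapping groups (log2 fold-change -0.51, SE 0.24, adjusted p = 0.188, edgeR).

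NF-kB genes and secreted factors gave a mixed picture. Of 21 NF-kB subunits and feedback genes, 7 were upregulated in bleomycin (6.54% of all genes were) and 0 downregulated. The median was 0.36, or 0.23 without doxorubicin replicate 2 and 0.18 without bleomycin replicate 3, and the count was 0 without doxorubicin replicate 1, 1 without doxorubicin replicate 3, 3 without doxorubicin replicate 2, and 4 without bleomycin replicate 2. They were TRAF1, ICAM1, BIRC3, SOD2, TNIP1, TNIP2, and RELB. ICAM1, an adhesion molecule for leukocytes, was at 60.6, 50.3, and 71.6 CPM in bleomycin, at 34.9, 28.1, and 41.4 CPM in doxorubicin, and at 4.12 to 5.27 CPM in untreated day-7 cells (log2 fold-change between drugs 0.81, adjusted p = 0.019, edgeR, 5 of 6). Of 37 chemokines and cytokines in the list, only 15 were in the count table, which holds genes counted in every library. Of these 15, 6 were upregulated (40%) and 0 downregulated, against 6.54% and 5.53% of all genes, with a median of 0.71. The count was 3 without doxorubicin replicate 1 or 3 and 4 without doxorubicin replicate 2 or bleomycin replicate 3. The whole list named 72 secreted factors, of which 38 were in the count table and the others could not be tested. Of the 38, 8 were upregulated (21.1%) and 3 downregulated (7.89%), against 6.54% and 5.53% of all genes. The counts were 4 and 0 without doxorubicin replicate 1 or 3. The median of this list was 0.28, or -0.011 without bleomycin replicate 3. Of 23 proteases, binding proteins, and matrix proteins tested (35 in the list), 2 were upregulated (8.7%) and 3 downregulated (13%). The shares of all genes were 6.54% and 5.53%, and the median of these 23 was -0.08. The counts of 2 and 3 were 1 and 0 without doxorubicin replicate 1 or 3 and 2 and 5 without bleomycin replicate 3. The median was 0.11 without bleomycin replicate 2.

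Among secreted factors, CCL22, a chemokine that attracts regulatory T cells, was at 16.9, 18.6, and 13.5 CPM in bleomycin and at 7.15, 6.47, and 4.05 CPM in doxorubicin TIS cells (log2 fold-change 1.47, SE 0.22, adjusted p = 0.00898, edgeR, 6 of 6). CX3CL1, a membrane-bound chemokine, was at 190, 188, and 170 CPM against 111, 77.4, and 83.1 CPM (log2 fold-change 1.02, adjusted p = 0.00661, edgeR, 6 of 6). CSF1, the growth factor of macrophages, was higher by 1.05 (SE 0.12, adjusted p = 0.00496, edgeR, 6 of 6). GDF15, a stress cytokine, was at 36.3, 62.3, and 31.2 CPM against 26.5, 21.7, and 18.7 CPM and at 1.86 to 5.5 CPM in untreated day-7 cells (log2 fold-change between drugs 0.96, adjusted p = 0.0373, edgeR, 3 of 6). LCN2, an iron-chelating acute-phase protein, was at 17.5, 61.3, and 31.2 CPM against 16.7, 19.2, and 17.3 CPM. The high value of LCN2 in bleomycin replicate 2 widened its spread, and it did not pass (log2 fold-change 1.05, SE 0.36, adjusted p = 0.0832, edgeR).

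Transcripts of some matrix proteins were lower. THBS1 (thrombospondin) was at 210, 135, and 274 CPM in bleomycin and at 451, 301, and 473 CPM in doxorubicin TIS cells, and untreated day-7 cells had 116 to 184 CPM (log2 fold-change between drugs -0.99, adjusted p = 0.0332, edgeR, 4 of 6). FN1 (fibronectin) was at 136, 143, and 252 CPM against 269, 297, and 420 CPM, with a call that held in 1 of 6 fits (log2 fold-change -0.90, adjusted p = 0.043, edgeR). TIMP3, an inhibitor of matrix proteases, was at 1.18, 1.15, and 1.13 CPM against 2.48, 2.68, and 2.75 CPM (log2 fold-change -1.19, adjusted p = 0.0159, edgeR, 4 of 6), while TIMP1, another such inhibitor, was at 4.57, 4.92, and 4.45 CPM against 2.36, 2.17, and 2.05 CPM (log2 fold-change 1.08, adjusted p = 0.0137, edgeR, 4 of 6). DKK1, a secreted WNT antagonist, was at 5.55, 1.82, and 6.58 CPM against 19, 7.89, and 17.2 CPM (log2 fold-change -1.66, adjusted p = 0.0393, edgeR, 3 of 6). FN1, THBS1, and DKK1 all lay lower in bleomycin than in doxorubicin TIS cells. Against untreated day-7 cells, FN1 was higher by 1.22 with bleomycin and by 2.13 with doxorubicin on the log2 scale, and DKK1 by 1.23 and 2.90. Many of the chemokines known from senescent cells, such as CXCL8, IL6, CCL5, and CXCL10, were not analysed here.

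Genes of the S100 family, CEACAM1, and keratins are described next. S100A9, a subunit of calprotectin, was at 469, 553, and 586 CPM in bleomycin, at 205, 238, and 194 CPM in doxorubicin, and at 60.7 to 75.9 CPM in untreated day-7 cells (log2 fold-change between drugs 1.34, SE 0.12, adjusted p = 0.00172, edgeR, 6 of 6). S100A8, its partner, was higher by 1.10 (adjusted p = 0.00779, edgeR, 5 of 6) and S100A7 (psoriasin) by 1.67 (adjusted p = 0.00877, edgeR, 4 of 6). CEACAM1, an adhesion molecule and inhibitory receptor ligand, was at 12.8, 15.3, and 17.7 CPM against 6.1, 4.96, and 5.44 CPM (log2 fold-change 1.47, adjusted p = 0.00496, edgeR, 6 of 6). KRT23, a type I keratin, was at 27.4, 28.7, and 29.6 CPM against 13.4, 13.6, and 10.6 CPM (log2 fold-change 1.19, adjusted p = 0.00424, edgeR, 6 of 6). Of 29 keratin and junction genes tested, 7 were upregulated and 0 downregulated, against 6.54% and 5.53% of all genes. The count of 7 was 3 without doxorubicin replicate 1 and 4 without doxorubicin replicate 3.

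Replication and mitosis genes were then examined. Of 39 replication genes, 25 were downregulated and 0 upregulated relative to doxorubicin, against 5.53% of all genes, with a median log2 fold-change of -0.76, and all 39 log2 fold-changes were negative. The count of 25 was 1 without doxorubicin replicate 1, 1 without doxorubicin replicate 3, and 11 without doxorubicin replicate 2, while the median stayed between -0.93 and -0.58. Of 53 mitosis genes, 32 were downregulated and 1, CDC25B, was upregulated (median -0.87), and the 32 became 0 without doxorubicin replicate 1 or 3, 12 without doxorubicin replicate 2, and 16 without bleomycin replicate 3. Medians over untreated day-7 cells were negative with both drugs, at values of -1.23 for bleomycin and -0.56 for doxorubicin in replication genes and of -1.41 and -0.45 in mitosis genes. Bleomycin replicate 2 was the lowest library, as the median deviation of mitosis genes from their mean over the 6 libraries was -1.14 there and -0.02 and -0.24 in the other bleomycin libraries, on the log2 scale. In bulk libraries, fewer cycling cells and less RNA per cell cannot be told apart.

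The letters TTTCCCGC and TTTGGCGC, forms of the E2F site, were searched on both strands in the same promoter window. They were present in 16 of 33 replication genes (48.5%), in 3 of 44 mitosis genes (6.82%), in 50 of 620 downregulated genes (8.06%), in 16 of 697 upregulated genes (2.30%), in 394 of 10710 genes tested (3.68%), and in 631 of all 27305 promoters (2.31%). Genes with a match include CDC6, EZH2, UHRF1, and E2F2, which were downregulated, HELZ2, which was upregulated, and MDM2, which did not pass. The 100 bases before the start of UHRF1 and E2F2, both lower in bleomycin TIS cells, are shown with the match in capitals (RefSeq, GRCh38.p14). In UHRF1 the match lies on the other strand.
UHRF1 (chr19:4909401-4909500, plus strand): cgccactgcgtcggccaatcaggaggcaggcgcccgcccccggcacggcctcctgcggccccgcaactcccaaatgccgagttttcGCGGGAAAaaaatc
E2F2 (chr1:23531234-23531333, minus strand): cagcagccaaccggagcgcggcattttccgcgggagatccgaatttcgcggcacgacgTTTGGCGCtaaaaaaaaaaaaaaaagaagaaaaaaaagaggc

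CDC6, which loads the MCM helicase at replication origins, was at 149, 77.7, and 160 CPM in bleomycin and at 300, 340, and 350 CPM in doxorubicin TIS cells, and untreated day-7 cells had 361 to 435 CPM. The groups did not overlap, and the log2 fold-change between drugs was -1.36 (SE 0.22, adjusted p = 0.0112, edgeR, 4 of 6). RRM2, the small subunit of ribonucleotide reductase, was at 88.3, 24.3, and 64.3 CPM against 177, 166, and 185 CPM (log2 fold-change -1.58, SE 0.35, adjusted p = 0.0252, edgeR, 3 of 6). UHRF1, which directs DNA methylation to replicated DNA, was at 7.23, 5.14, and 13 CPM against 23.3, 22.8, and 29.7 CPM (log2 fold-change -1.58, SE 0.29, adjusted p = 0.0148, edgeR, 4 of 6). Against untreated day-7 cells, UHRF1 was lower in bleomycin TIS cells (-1.94, adjusted p = 0.000987, edgeR), whereas doxorubicin TIS cells did not pass (-0.35, adjusted p = 0.0605, edgeR). MCM10 (-1.38) was downregulated too, as were ORC1 (-1.33), LIG1 (-1.18), and PCNA (-0.89).

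Among cyclins and E2F factors, 10 of 20 genes tested were downregulated and 0 upregulated, against 5.53% and 6.54% of all genes, with a median of -0.68. With CDK inhibitors included, 11 of 26 were downregulated, and this count was 1 without doxorubicin replicate 1, 2 without doxorubicin replicate 2 or 3, and 7 without bleomycin replicate 3. CCNE2 (cyclin E2), which drives entry into S phase, was at 1.08, 0.894, and 1.31 CPM in bleomycin, at 3.65, 3.31, and 4.47 CPM in doxorubicin, and at 5.33 to 6.32 CPM in untreated day-7 cells. It was the 1 named gene of this list besides CDKN1A that kept its call in 6 of 6 fits (log2 fold-change -1.79, SE 0.25, adjusted p = 0.00755, edgeR). The E2F factors E2F8 (-1.27, 5 of 6), E2F7 (-1.35, 3 of 6), and E2F2 (-1.28, 2 of 6) were downregulated. CCNB1, the mitotic cyclin, was at 55.5, 26.6, and 47.5 CPM against 88.2, 80.4, and 81.3 CPM (log2 fold-change -0.95, adjusted p = 0.0266, edgeR, 3 of 6). CDK4 (-0.06), CDK6 (0.02), and RB1 (-0.08) were near 0.

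Several mitotic genes had lower levels without overlap. KIF14, a kinesin of cytokinesis, was at 8.07, 4.09, and 10.2 CPM in bleomycin and at 17.3, 18.2, and 21.5 CPM in doxorubicin TIS cells (log2 fold-change -1.35, adjusted p = 0.0197, edgeR, 4 of 6). ASPM, a spindle pole protein, was at 43.7, 20.6, and 42.6 CPM against 79.4, 69.8, and 97.3 CPM (log2 fold-change -1.21, adjusted p = 0.0203, edgeR, 4 of 6). MKI67, the marker of proliferation, was at 151, 52.6, and 105 CPM against 221, 195, and 240 CPM (log2 fold-change -1.09, SE 0.29, adjusted p = 0.0422, edgeR, 2 of 6). CDC25B, a phosphatase that activates mitotic CDK1, was the exception at 261, 218, and 214 CPM against 160, 171, and 139 CPM (log2 fold-change 0.56, adjusted p = 0.0191, edgeR, 4 of 6). AURKA (-0.65), AURKB (-1.11), and BIRC5 (-0.85) had negative log2 fold-changes and did not pass.

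Repair genes that act during replication were also lower. Of 28 homologous recombination and Fanconi genes, 10 were downregulated (5.53% of all genes were) and 0 upregulated. The median was -0.71, or -0.41 without bleomycin replicate 2, and the count was 0 without doxorubicin replicate 1 or 3 and 4 without doxorubicin replicate 2. EXO1, a nuclease that resects DNA ends, was at 12.9, 4.53, and 11.3 CPM in bleomycin and at 21.9, 23, and 23.8 CPM in doxorubicin TIS cells (log2 fold-change -1.26, adjusted p = 0.0305, edgeR, 3 of 6). RAD54L, a translocase of homologous recombination, was at 10.8, 5.52, and 10.3 CPM against 19.7, 19.5, and 19.5 CPM (log2 fold-change -1.14, adjusted p = 0.0179, edgeR, 4 of 6). Of 25 end joining and damage sensing genes, 6 were downregulated and 0 upregulated, and 0 passed without any 1 of the 3 doxorubicin libraries. These 6 were POLQ (-1.02), CHEK1 (-0.97), H2AX (-0.72), MDC1 (-0.51), PARP2 (-0.47), and PARP1 (-0.38). The core end joining genes XRCC5 (-0.05), XRCC6 (-0.08), and LIG4 (-0.14) and the kinase ATM (-0.10) did not pass.

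**Figure D3:**
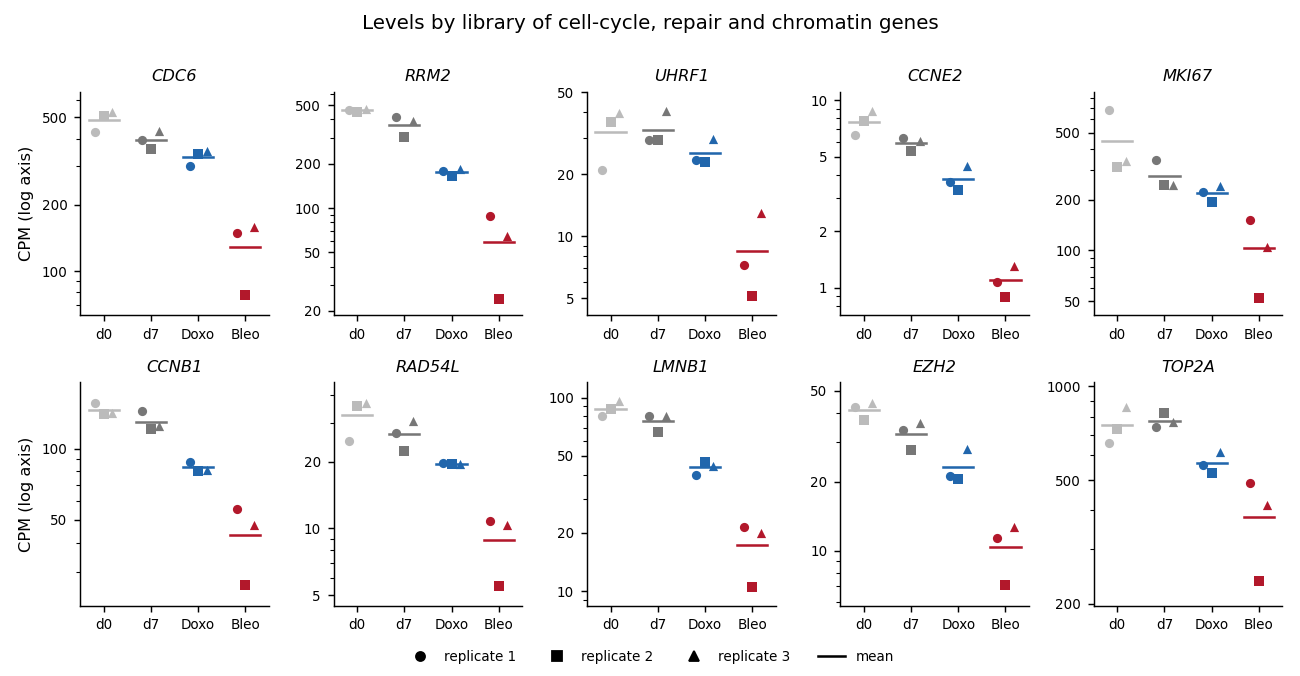
CPM on a log axis in each library of untreated day-0 (d0), untreated day-7 (d7), doxorubicin (Doxo), and bleomycin (Bleo) cells for 10 genes of replication, mitosis, repair, and chromatin, with marker shape for the replicate and a bar for the mean of 3 libraries. Bleomycin libraries lie below doxorubicin libraries in all 10 genes, as was so for 2485 of 13862 genes tested. Bleomycin replicate 2 is the lowest, for example 77.7 CPM for CDC6, while TOP2A did not pass the test.

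Transcripts of nuclear proteins whose loss marks senescence were in part lower with bleomycin. LMNB1 (lamin B1) was at 21.5, 10.5, and 19.9 CPM in bleomycin, at 40, 46.6, and 44.1 CPM in doxorubicin, and at 66.6 to 80.5 CPM in untreated day-7 cells. The log2 fold-change between drugs was -1.33 (SE 0.22, adjusted p = 0.0117, edgeR, 4 of 6). HMGB2, a chromatin protein, was at 17.1, 10.2, and 15.9 CPM against 24.8, 22.3, and 25.3 CPM (log2 fold-change -0.75, adjusted p = 0.0313, edgeR, 3 of 6), and EZH2, the methyltransferase of Polycomb, was lower by 1.16 on the log2 scale (-1.16, adjusted p = 0.0154, edgeR, 4 of 6). In all, 6 of 14 genes of this list were downregulated and 1, HMGA1 (0.40), was upregulated, against 5.53% and 6.54% of all genes. Without doxorubicin replicate 1 or 3, 0 of the 6 passed. The linker histone H1-2, which was higher than untreated by 1.94 with bleomycin and by 1.64 with doxorubicin, did not pass between drugs (0.32, adjusted p = 0.201, edgeR). Of 24 linker and core histone genes tested, 1 was upregulated (4.17%) and the variants H2AX (-0.72) and H2AZ2 (-0.63) were downregulated (8.33%), against 6.54% and 5.53% of all genes. The list median was 0.03, and 0 of the 3 passed without any 1 of the 3 doxorubicin libraries.

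CDKN1A, which encodes the CDK inhibitor p21, was at 33.7, 31.6, and 39 CPM in bleomycin, at 20.9, 19.2, and 17.4 CPM in doxorubicin, and at 10.8, 9.88, and 14.9 CPM in untreated day-7 cells. The groups did not overlap, and the log2 fold-change between drugs was 0.86 (SE 0.12, adjusted p = 0.00755, edgeR, 6 of 6). Of 32 p53 target genes tested, CDKN1A included, 4 were upregulated, against 6.54% of all genes, 0 were downregulated, and the median was -0.04, beside a median of -0.0074 over all genes. The 4 genes were CDKN1A, GDF15, BBC3, and CCNG1, and 1 was left without doxorubicin replicate 1 or 3 and 2 without doxorubicin replicate 2 or bleomycin replicate 2. BBC3 (PUMA), a BH3-only death protein, was at 8.31, 12, and 7.92 CPM against 6.33, 5.24, and 5.35 CPM (log2 fold-change 0.74, adjusted p = 0.0432, edgeR, 2 of 6). MDM2, which degrades p53 and is induced by it, was at 97.1, 125, and 122 CPM in bleomycin, at 111, 119, and 122 CPM in doxorubicin, and at 115 to 123 CPM in untreated day-7 cells, with a log2 fold-change between drugs of -0.03 (SE 0.11, adjusted p = 0.874, edgeR). Levels of CDKN2A (-0.61) and CDKN2B (-0.51) did not pass, and CDKN2C, an inhibitor of CDK4 and CDK6, was downregulated (-0.69).

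Of 30 BCL-2 family and death receptor genes, 5 were upregulated and 1 downregulated, against 6.54% and 5.53% of all genes. The median was 0.20, or 0.12 without bleomycin replicate 2. CASP4, the inflammatory caspase that senses cytosolic lipopolysaccharide, was at 27.3, 36.9, and 31.4 CPM in bleomycin, at 15.3, 15.4, and 16.4 CPM in doxorubicin, and at 3.5 to 4.95 CPM in untreated day-7 cells (log2 fold-change between drugs 1.02, SE 0.13, adjusted p = 0.00661, edgeR, 6 of 6). TNFSF10 (TRAIL), a death ligand, was at 11, 13.5, and 14.5 CPM against 5.77, 8.46, and 8.19 CPM (log2 fold-change 0.80, adjusted p = 0.0299, edgeR, 2 of 6). GSDMC, a pore-forming gasdermin, was higher by 1.05 (adjusted p = 0.0165, edgeR, 4 of 6), and BID was lower (-0.45, adjusted p = 0.0335, edgeR, 1 of 6). The survival genes BCL2L1 (0.20) and MCL1 (0.22) did not pass. Without doxorubicin replicate 1 or 3 the number of upregulated genes was 1, and it was 3 without doxorubicin replicate 2 or bleomycin replicate 2.

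Of 7 topoisomerases and other drug targets, 1 was downregulated in bleomycin TIS cells, TOP3A (-0.39), and 0 were upregulated, against 5.53% and 6.54% of all genes. TOP2A, the topoisomerase of dividing cells that doxorubicin traps, was at 488, 236, and 415 CPM in bleomycin, at 557, 528, and 614 CPM in doxorubicin, and at 739 to 821 CPM in untreated day-7 cells. It did not pass between drugs (log2 fold-change -0.58, SE 0.22, adjusted p = 0.105, edgeR), and TOP2B did not either (-0.08, SE 0.09, adjusted p = 0.572, edgeR). BLMH, the hydrolase that inactivates bleomycin, was at 82.6, 69.8, and 85.7 CPM in bleomycin and at 71, 89.8, and 74.2 CPM in doxorubicin TIS cells, with overlapping groups (log2 fold-change 0.02, SE 0.12, adjusted p = 0.936, edgeR), and both lay below the 105 to 111 CPM of untreated day-7 cells. Of 10 genes for the handling of bleomycin and anthracyclines, the log2 fold-changes had a median of 0.03.

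Efflux pumps were lower in bleomycin than in doxorubicin TIS cells in 5 of 10 genes tested, with 0 upregulated, against 5.53% and 6.54% of all genes. ABCG2, a pump for many drugs that include anthracyclines, was at 39, 16.6, and 32.8 CPM in bleomycin, at 83.9, 66, and 93.1 CPM in doxorubicin, and at 55.3 to 64.2 CPM in untreated day-7 cells. It therefore lay below untreated cells with bleomycin (-1.01, adjusted p = 0.00971, edgeR) and above them with doxorubicin (0.46, adjusted p = 0.00674, edgeR), and the difference between drugs was -1.46 (SE 0.26, adjusted p = 0.0142, edgeR, 4 of 6). ABCC11 was at 79.2, 35.8, and 52.7 CPM against 106, 124, and 93.4 CPM (log2 fold-change -0.95, adjusted p = 0.0349, edgeR, 2 of 6), and ABCC5 (-0.60), ABCC10 (-0.72), and ABCC2 (-0.47) were also downregulated. ABCC3 was at 14.4, 33.2, and 25.6 CPM against 14.2, 22.8, and 18 CPM and did not pass (log2 fold-change 0.41, adjusted p = 0.341, edgeR). ABCB1 was not analysed here. Without doxorubicin replicate 1 or 3, 0 of the 5 pumps passed, and over the whole list of 27 targets, handling genes, and pumps the 6 downregulated genes became 2 without bleomycin replicate 2 and 3 without doxorubicin replicate 2 or bleomycin replicate 3.

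Genes of the integrated stress and unfolded protein responses serve cells when amino acids run short or the endoplasmic reticulum is overloaded. Of 25 tested, 8 were upregulated with bleomycin, against 6.54% of all genes, and 0 downregulated. The median was 0.30, or 0.19 without bleomycin replicate 2. Without doxorubicin replicate 1 or 3 the count was 0, and it was 5 without doxorubicin replicate 2. ASNS (asparagine synthetase) was at 266, 363, and 255 CPM in bleomycin, at 140, 169, and 130 CPM in doxorubicin, and at 178, 295, and 198 CPM in untreated day-7 cells. The log2 fold-change between drugs was 1.01 (SE 0.16, adjusted p = 0.00907, edgeR, 4 of 6), and against untreated cells doxorubicin was lower (-0.59, adjusted p = 0.0114, edgeR) whereas bleomycin did not pass (0.41, adjusted p = 0.117, edgeR). CHAC1, which breaks down glutathione, was at 17.2, 29.4, and 16.8 CPM against 9.96, 11.2, and 6.22 CPM (log2 fold-change 1.21, adjusted p = 0.0258, edgeR, 4 of 6). DDIT3 (CHOP) was higher by 0.89 (adjusted p = 0.0381, edgeR, 3 of 6) and CEBPB by 1.01 (adjusted p = 0.0202, edgeR, 4 of 6), whereas chaperones of the unfolded protein response such as HSPA5 (0.27), HSP90B1 (-0.10), and PDIA4 (-0.24) did not pass.

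The letters TGATGNAA, the core of the element that ATF4 reads, were present on either strand in 5 of 24 promoters of this list (20.8%), in 16 of 697 upregulated genes (2.30%), in 7 of 620 downregulated genes (1.13%), in 169 of 10710 genes tested (1.58%), and in 1003 of all 27305 promoters (3.67%). Genes with these letters include ASNS and CHAC1, which were upregulated, and ABCG2, which was downregulated. The stretches of ASNS and CHAC1 are shown with the match in capitals (RefSeq, GRCh38.p14), and in CHAC1 it lies on the other strand.
ASNS (chr7:97872409-97872508, minus strand): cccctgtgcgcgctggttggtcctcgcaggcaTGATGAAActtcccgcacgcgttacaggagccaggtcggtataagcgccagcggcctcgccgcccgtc
CHAC1 (chr15:40953221-40953279, plus strand): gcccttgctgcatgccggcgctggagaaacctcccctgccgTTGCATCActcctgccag

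Of 14 metal handling genes, 2 were upregulated and 3 downregulated (median -0.17, or -0.11 without bleomycin replicate 2), against 6.54% and 5.53% of all genes. The counts were 0 and 1 without doxorubicin replicate 1 and 0 and 3 without doxorubicin replicate 3. FTH1 (ferritin heavy chain) was at 3367, 6228, and 3878 CPM in bleomycin, at 1847, 2519, and 1606 CPM in doxorubicin, and at 769 to 1137 CPM in untreated day-7 cells (log2 fold-change between drugs 1.18, SE 0.25, adjusted p = 0.0223, edgeR, 4 of 6). FTL (ferritin light chain) was at 273, 389, and 257 CPM against 148, 179, and 126 CPM (log2 fold-change 1.02, adjusted p = 0.0137, edgeR, 4 of 6). Metallothionein MT2A, which binds zinc and copper, was at 28, 20.7, and 26.4 CPM in bleomycin, at 56.3, 60.7, and 41.5 CPM in doxorubicin, and at 92.1 to 98.1 CPM in untreated day-7 cells (log2 fold-change between drugs -1.08, SE 0.16, adjusted p = 0.00877, edgeR, 5 of 6). MT1X, its close paralog with which reads may be shared, was lower by a similar amount (-0.96, adjusted p = 0.015, edgeR, 5 of 6). SLC30A1, the zinc exporter of the plasma membrane, was at 48.8, 46.8, and 47.5 CPM against 98.6, 79.4, and 107 CPM (log2 fold-change -1.0, SE 0.11, adjusted p = 0.00496, edgeR, 6 of 6). The transferrin receptor TFRC (-0.31) and the iron exporter SLC40A1 (-0.26) did not pass.

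Among 26 NRF2 and oxidative stress genes, 5 were upregulated and 3 downregulated, against 6.54% and 5.53% of all genes. The counts were 0 and 0 without doxorubicin replicate 1 or 3 and 3 and 2 without doxorubicin replicate 2. GPX4, which removes lipid peroxides, was at 123, 139, and 108 CPM in bleomycin, at 75.6, 84.5, and 58.9 CPM in doxorubicin, and at 105 to 137 CPM in untreated day-7 cells, so bleomycin cells lay near the untreated range and doxorubicin cells below it (log2 fold-change between drugs 0.76, adjusted p = 0.0167, edgeR, 4 of 6). GPX3 (0.97), SRXN1 (0.75), SLC7A11 (0.64), and SOD2 (0.63) were the other upregulated genes, and GPX2 (-0.53), ABCC2 (-0.47), and GSR (-0.37) were downregulated. NQO1, a standard NRF2 target, was at 627, 780, and 690 CPM against 667, 941, and 694 CPM and did not pass (log2 fold-change -0.13, adjusted p = 0.576, edgeR).

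Lipid synthesis genes were in part lower with bleomycin. Of 13 fatty acid synthesis genes, 5 were downregulated and 0 upregulated, with a median of -0.27, and 0 passed without doxorubicin replicate 1 or 3 and 3 without doxorubicin replicate 2, bleomycin replicate 2, or bleomycin replicate 3. ACACB, the mitochondrial form of acetyl-CoA carboxylase, was at 18.9, 6.86, and 14.8 CPM in bleomycin, at 34.4, 45, and 38.7 CPM in doxorubicin, and at 58 to 67.5 CPM in untreated day-7 cells (log2 fold-change between drugs -1.54, adjusted p = 0.0165, edgeR, 4 of 6). ELOVL6, which lengthens palmitate, was at 66, 41.2, and 72 CPM against 111, 113, and 135 CPM, and untreated day-7 cells had 117 to 124 CPM (log2 fold-change between drugs -1.01, adjusted p = 0.0148, edgeR, 4 of 6). FASN, by contrast, was at 6134, 6362, and 4964 CPM against 5416, 8043, and 5491 CPM, with overlapping groups (log2 fold-change -0.12, SE 0.18, adjusted p = 0.698, edgeR). Of 27 cholesterol and SREBP genes, 5 were downregulated and 1 upregulated, against 5.53% and 6.54% of all genes, all by less than a factor of 2, with SREBF1 at -0.43 (1 of 6) and the sterol exporter ABCG1 at 0.74 (4 of 6). In this list 0 passed without doxorubicin replicate 1 or 3, and the 5 downregulated genes became 1 without bleomycin replicate 2 or 3 and 3 without doxorubicin replicate 2.

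Of 30 lysosome genes, 8 were upregulated, against 6.54% of all genes, and 0 downregulated. The median was 0.15, or 0.09 without doxorubicin replicate 2 or bleomycin replicate 1, and 0 passed without doxorubicin replicate 1 or 3 and 3 without doxorubicin replicate 2. CTSB (cathepsin B) was at 184, 192, and 167 CPM in bleomycin and at 113, 124, and 109 CPM in doxorubicin TIS cells, while untreated day-7 cells had 114 to 132 CPM (log2 fold-change between drugs 0.65, SE 0.10, adjusted p = 0.00877, edgeR, 4 of 6). GLB1, the gene of senescence-associated β-galactosidase, was at 196, 187, and 195 CPM against 188, 186, and 187 CPM (log2 fold-change 0.04, SE 0.08, adjusted p = 0.754, edgeR). CD68, a lysosomal membrane glycoprotein of macrophages, was at 34.3, 56.4, and 35.6 CPM in bleomycin, at 9.25, 9.89, and 10.2 CPM in doxorubicin, and at 3.7 to 7.33 CPM in untreated day-7 cells (log2 fold-change between drugs 2.11, SE 0.20, adjusted p = 0.00199, edgeR, 6 of 6). The immune markers PTPRC, CD14, and CD3E were not analysed here.

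Transcripts encoded by mitochondrial DNA had positive log2 fold-changes in 13 of 13 genes, with a median of 0.59, or 0.31 without bleomycin replicate 1. Of these, 3 passed, against 6.54% of all genes, a count that was 0 without doxorubicin replicate 1 or 3 and 7 without bleomycin replicate 3. COX2 (MT-CO2), a subunit of complex IV, was at 8960, 7285, and 5199 CPM in bleomycin, at 2779, 3175, and 1973 CPM in doxorubicin, and at 759 to 1704 CPM in untreated day-7 cells (log2 fold-change between drugs 1.44, SE 0.23, adjusted p = 0.00988, edgeR, 4 of 6). COX1 (MT-CO1) was higher by 1.11 (adjusted p = 0.0195, edgeR, 4 of 6) and ND4 (MT-ND4) by 0.80 (adjusted p = 0.0469, edgeR, 1 of 6). These transcripts also varied among untreated cells, as 1 of the 3 day-0 libraries held 8.73% of its counts in them and the other day-0 libraries 1.36% and 1.69%. Of the called genes that are not mitochondrially encoded, 1664 of 1667 remained called when these transcripts were removed before normalisation, an alternative chosen after seeing the data. Among 31 MYC and ribosome biogenesis genes, 4 were downregulated and 0 upregulated (median -0.16, or -0.11 without bleomycin replicate 2), against 5.53% and 6.54% of all genes. In this list 0 passed without doxorubicin replicate 1 or 3, 1 without bleomycin replicate 2, and 2 without doxorubicin replicate 2 or bleomycin replicate 1. MYC itself was at 174, 160, and 185 CPM against 225, 172, and 188 CPM and did not pass (log2 fold-change -0.17, adjusted p = 0.326, edgeR).

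**Figure D4:**
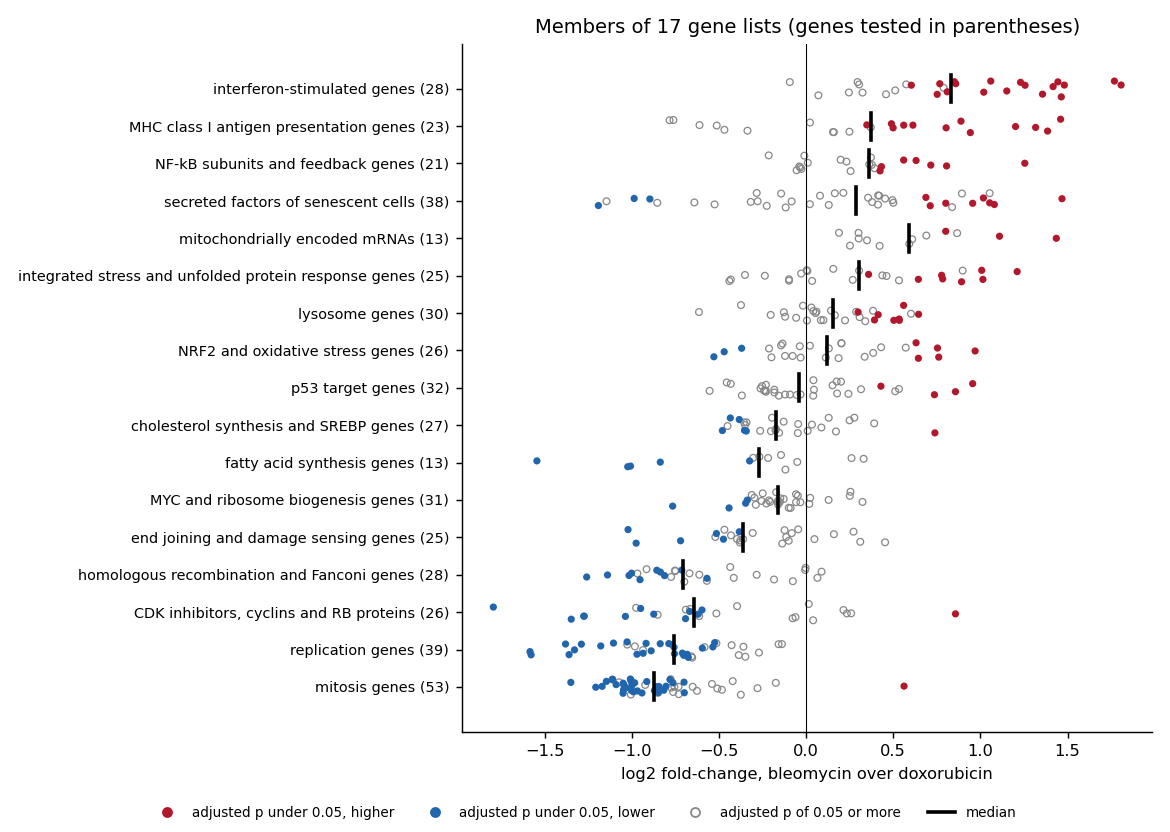
Each point is a gene of 1 of 17 lists, placed by its log2 fold-change of bleomycin over doxorubicin, with the median as a bar and the number of genes tested in parentheses. Filled points passed an adjusted p-value under 0.05, as did 18 of 28 interferon-stimulated genes on the right and 25 of 39 replication genes on the left.

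**Figure D5:**
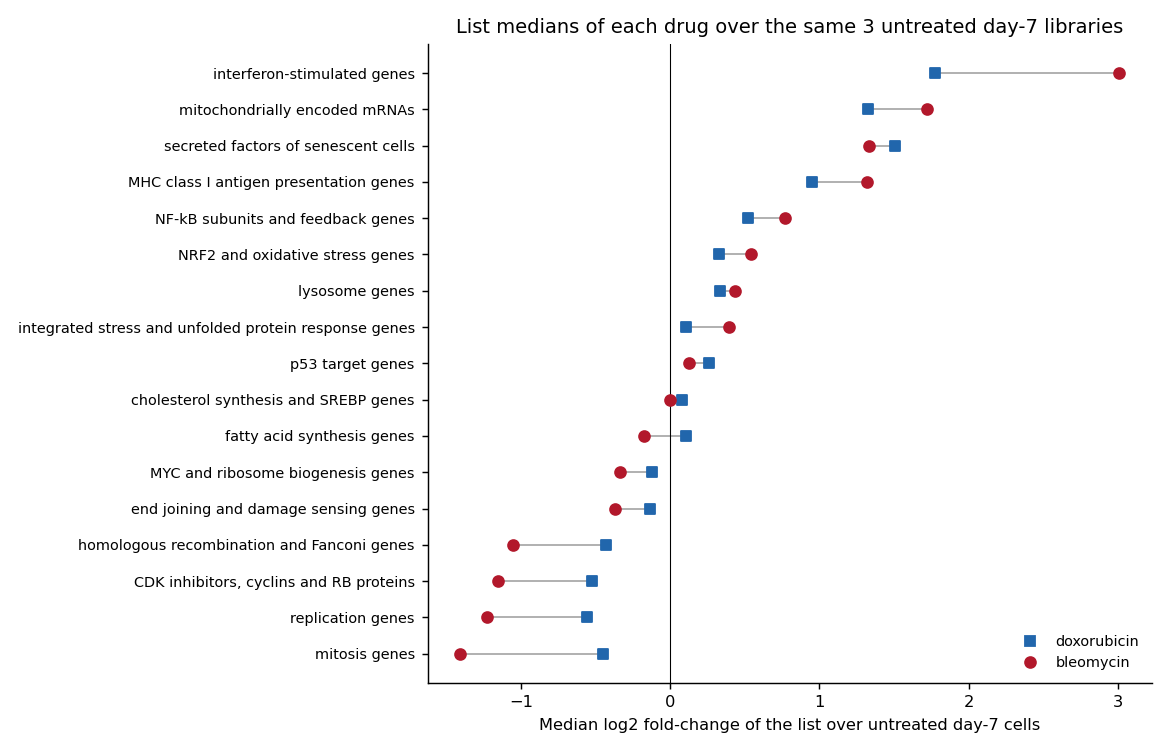
Median log2 fold-change of each list over untreated day-7 cells for doxorubicin (squares) and bleomycin (circles), both computed against the same 3 untreated libraries. The interferon-stimulated genes have medians of 3.01 for bleomycin and 1.78 for doxorubicin, and the secreted factors of 1.34 and 1.51 although their median of the direct comparison is 0.28.

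The 12 genes with the largest increase in bleomycin over doxorubicin TIS cells, among those past the threshold with at least 5 CPM, were CYP24A1, PIGR, ORM1, CD68, GGT5, UNC5B, HSD17B14, HELZ2, OAS2, MX1, BAIAP3, and S100A7. CYP24A1, which degrades vitamin D, was at 12.8, 49.4, and 22.9 CPM in bleomycin and at 3.55, 6.21, and 5.62 CPM in doxorubicin TIS cells (log2 fold-change 2.48, SE 0.44, adjusted p = 0.0142, edgeR, 4 of 6). PIGR, the receptor that carries IgA through epithelia, was at 58.2, 305, and 155 CPM against 26.2, 42.8, and 40.7 CPM and at 0.687 to 2.17 CPM in untreated day-7 cells. Its 3 bleomycin libraries spread over a wide range, and its call held in 3 of 6 fits (log2 fold-change between drugs 2.25, SE 0.48, adjusted p = 0.0236, edgeR). Against untreated day-7 cells PIGR was higher by 7.07 with bleomycin and by 4.83 with doxorubicin on the log2 scale.

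Several genes of this set were higher than untreated with bleomycin, whereas doxorubicin did not pass against untreated cells. UNC5B, a netrin receptor, was at 167, 314, and 177 CPM in bleomycin, at 47.2, 75.6, and 49.6 CPM in doxorubicin, and at 57.2, 114, and 66.1 CPM in untreated day-7 cells (log2 fold-change between drugs 1.93, SE 0.27, adjusted p = 0.00749, edgeR, 6 of 6). GGT5, which cleaves glutathione conjugates and leukotriene C, was at 16.8, 21.1, and 18.6 CPM in bleomycin and at 4.67, 5.9, and 4.2 CPM in doxorubicin TIS cells, and untreated day-7 cells had 4.54 to 6.52 CPM (log2 fold-change between drugs 1.94, SE 0.17, adjusted p = 0.00172, edgeR, 6 of 6). HSD17B14, a steroid dehydrogenase, was at 4.57, 8.4, and 5.33 CPM against 1.71, 1.57, and 1.69 CPM, with 1.35 to 1.85 CPM in untreated day-7 cells (log2 fold-change between drugs 1.88, adjusted p = 0.00755, edgeR, 5 of 6). ORM1, an acute-phase glycoprotein, was at 5.41, 6.96, and 10.3 CPM against 1.47, 1.82, and 1.84 CPM (log2 fold-change 2.14, adjusted p = 0.00605, edgeR, 6 of 6), although its paralog is nearly identical and may share its reads.

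The genes with the largest decrease included LOC112694756, BPIFA4P, TARP, BPIFB1, AGR2, CYP4Z1, DNAH3, SLC5A8, MMP16, DKK1, and COLCA1. For BPIFB1, BPIFA4P, SLC5A8, CYP4Z1, DKK1, and COLCA1, doxorubicin cells lay above untreated day-7 cells. BPIFB1 (GRCh37 chr20:31861286-31897677), a secreted lipid-binding protein of airway and glandular epithelium, was at 9.96, 12.1, and 10.5 CPM in doxorubicin, at 2.19, 1.56, and 2.1 CPM in bleomycin, and at 0.953 to 1.42 CPM in untreated day-7 cells (log2 fold-change of bleomycin over doxorubicin -2.48, SE 0.19, adjusted p = 0.00168, edgeR, 6 of 6). BPIFA4P, a pseudogene of the same family, was at 5.63, 4.27, and 7.52 CPM in doxorubicin and at 0.874, 0.319, and 0.518 CPM in bleomycin TIS cells (log2 fold-change -3.35, adjusted p = 0.00416, edgeR, 6 of 6). SLC5A8, a monocarboxylate transporter, was at 126, 128, and 127 CPM in doxorubicin, at 50.4, 21.1, and 40.2 CPM in bleomycin, and at 42.8 to 50.9 CPM in untreated day-7 cells (log2 fold-change -1.78, adjusted p = 0.00755, edgeR, 6 of 6). CYP4Z1, a mammary fatty acid hydroxylase, had 11.1 to 15.7 CPM in doxorubicin and 1.98 to 4.4 CPM in bleomycin TIS cells (log2 fold-change -2.1, adjusted p = 0.00653, edgeR, 6 of 6).

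For AGR2 and MMP16, and for TFF1, named as a marker of other lines, bleomycin cells lay below untreated cells. AGR2, a disulfide isomerase of secretory epithelium, was at 86.9, 25, and 51.3 CPM in bleomycin, at 305, 197, and 238 CPM in doxorubicin, and at 289, 191, and 241 CPM in untreated day-7 cells (log2 fold-change between drugs -2.19, SE 0.36, adjusted p = 0.0116, edgeR, 4 of 6). TFF1, a mucosal peptide, had 0.874, 0.128, and 0.366 CPM in bleomycin and 2.59, 1.57, and 1.51 CPM in doxorubicin TIS cells, a low level whose call held in 1 of 6 fits (log2 fold-change -2.07, adjusted p = 0.0351, edgeR). MMP16, a membrane-bound matrix protease, was at 11.5, 3.8, and 8.77 CPM against 26.3, 18.2, and 34 CPM (log2 fold-change -1.71, adjusted p = 0.0207, edgeR, 4 of 6).

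The entries LOC112694756 and TARP share their locus with other gene models and are uncertain. LOC112694756, whose listed synonyms include ALDOA and whose locus overlaps that glycolytic gene, was at 37.6, 7.57, and 7.95 CPM in bleomycin and at 359, 462, and 186 CPM in doxorubicin TIS cells, a log2 fold-change of -4.26 (SE 0.62, adjusted p = 0.00869, edgeR, 6 of 6). ALDOA, named here after its values were seen, was higher in bleomycin cells instead, at 1566, 1618, and 1311 CPM against 973, 1070, and 887 CPM (log2 fold-change 0.62, adjusted p = 0.0189, edgeR), so how reads were divided between both entries bears on the first value. TARP, a transcript of the T-cell receptor gamma locus, was at 16.7, 2.11, and 6.52 CPM in bleomycin and at 57.4, 46.7, and 44.8 CPM in doxorubicin TIS cells (log2 fold-change -2.57, adjusted p = 0.0201, edgeR, 4 of 6), and TRGC2 of the same locus was lower too (-2.67, adjusted p = 0.0119, edgeR).

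Among the 45 upregulated genes that kept their call in all 6 fits, 7 not described above were chosen after their values were seen. They are UBE2L6 (1.58) and UBA7 (1.32), the enzymes that attach ISG15, PARP10 (1.5), APOL1 (1.23), APOL6 (1.02), IFITM3 (1.02), and SP100 (1.01), with log2 fold-changes in parentheses. The letters GAAANNGAAA were found in 6 of 28 promoters of these 45 genes that had an entry (21.4%). The shares were 5.31% of all upregulated genes and 2.65% of genes tested. These 45 genes include interferon-stimulated genes described above. The letters were found in 0 of 16 promoters of the 23 downregulated genes, a number too small to set against 2.65%. The 23 downregulated genes included, besides those above, the uracil glycosylase UNG (-0.81), the retrotransposon-derived gene PEG10 (-1.56), the ion channel HCN3 (-1.89), and the apolipoprotein APOD (-1.03).

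Genes of the ERBB2 amplicon and of the luminal lineage had a median near that of all genes. Of 27 tested, 2 were upregulated (7.41%) and 1 downregulated (3.7%), near the 6.54% and 5.53% of all genes, with a median of -0.01. Upregulated were MIEN1, which lies beside ERBB2 and was at 276, 337, and 244 CPM in bleomycin, at 171, 209, and 145 CPM in doxorubicin, and at 304 to 309 CPM in untreated day-7 cells (log2 fold-change between drugs 0.71, adjusted p = 0.0254, edgeR, 4 of 6), and IKZF3 (0.88, adjusted p = 0.0179, edgeR, 4 of 6). The luminal factor GATA3 was lower (-0.46, adjusted p = 0.0492, edgeR, 1 of 6), and FOXA1 (-0.22), SPDEF (-0.05), and ERBB3 (0.09) did not pass. Without doxorubicin replicate 1 or 3, 0 genes of this list passed, and GATA3 was also lost without doxorubicin replicate 2, bleomycin replicate 2, or bleomycin replicate 3.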

How the data were processed

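The authors sequenced RNA of SKBR3 cells, used HISAT2 for alignment (GRCh37) and StringTie for transcript assembly, and deposited raw read counts per gene. How reads were counted, and whether strand was used, is not given in the sources used here. Library kits are named differently, for total RNA in the published methods and for mRNA in the labels. The table lists 14493 genes with at least 1 count in every library. Total counts were 32314679 to 32702078 per bleomycin library and 30696139 to 40842973 per doxorubicin library, so counting error is small for all but low genes.

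Groups came from the labels. Bleomycin was tested against doxorubicin with edgeR 4.0.16 in R 4.3.3 (filterByExpr, TMM, glmQLFit and glmQLFTest, 2-sided, Benjamini-Hochberg over all genes tested, only the 6 libraries in the fit, no replicate term). Each drug was also tested against untreated day-7 cells the same way. CPM values use TMM factors over the 24 libraries. An exact permutation test of 3 against 3 could not go below p = 0.1. Fits were tested on simulated data.

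The members and lists were chosen with earlier results of these data known. Genes named are the 12 largest changes in each direction (adjusted p under 0.05, no overlap, mean of at least 5 CPM in the higher group), key genes of the lists, up to 4 called members per direction of each list, and those said to be named after their values were seen. Other members are given by their log2 fold-change alone. Some genes the rule selects are not reported here. Lists are described by counts and medians, without a test. Of 13862 genes tested, 10710 matched a RefSeq promoter. Positions on GRCh37 come from the GENCODE annotation. Alternatives were DESeq2 1.42.0, RLE normalisation, testing without a filter, a minimum of 10 counts per library, a joint fit of the 24 libraries, the replicate number as a block, leaving out each library, and removal of mitochondrially encoded genes, the last added after seeing the data.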

Additional observations from a re-analysis of the deposited data

How the results depend on the processing

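The number of called genes depended on single libraries and on the tool. With 1 library left out, genes with an adjusted p-value under 0.05 (edgeR) ranged from 46 to 988 higher and from 26 to 1081 lower in bleomycin, and the lowest numbers came without doxorubicin replicate 1. DESeq2 called 1327 higher and 1187 lower. Labels give both drugs the same replicate numbers, and the replicate block gave 1426 and 1280, but same-numbered samples had correlations of -0.061, 0.076, and 0.327 of their deviations, so the numbers were not taken as pairs. With a 2-fold difference and an unadjusted p-value under 0.05 required, leaving out 1 library gave 165 to 324 higher and 184 to 467 lower.

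Leaving out 1 library gave these ranges of list medians on the log2 scale. They were -0.070 to 0.047 for p53 targets, -0.40 to -0.24 for end joining, -0.11 to 0.12 for histones, 0.32 to 0.49 for MHC class I, 0.18 to 0.36 for NF-kB, and -0.011 to 0.30 for secreted factors. They were 0.12 to 0.23 for BCL-2 family, -0.21 to -0.11 for metal handling, -0.22 to -0.11 for MYC and ribosome biogenesis, -0.17 to 0.015 for ERBB2 and luminal genes, and 0.13 to 0.23 for keratins and junctions. The cause was not tested.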

Other observations

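Long and short genes differed slightly in their distribution. Among 12077 protein-coding genes with 1 gene model of their symbol (GENCODE on GRCh37), those spanning under 10 kb had a median log2 fold-change of bleomycin over doxorubicin of 0.04, with 9.01% upregulated and 4.57% downregulated. Those spanning over 300 kb had a median of -0.06, with 3.62% upregulated and 4.98% downregulated. The medians of the classes between them were 0.01 (10 to 30 kb), -0.02 (30 to 100 kb), and -0.02 (100 to 300 kb). Against untreated day-7 cells, genes under 10 kb had medians of -0.10 with bleomycin and -0.13 with doxorubicin. These are descriptions over genes, which are not independent replicates.

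By class of gene, 865 upregulated and 736 downregulated genes were protein-coding among 12279 tested. Of 776 long non-coding RNAs, 24 were upregulated and 16 downregulated, against 6.54% and 5.53% of all genes.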
